A study of Homo sapiens with 49 samples.

Results

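The AP-1 subunit genes FOS, FOSB, FOSL1, FOSL2, JUN, JUNB, JUND and ATF3 were examined in ChIP-seq peak lists of 2 hormone-responsive cancer cell lines. They were chosen by name, as 8 of 20098 protein-coding genes on chromosomes 1 to 22 and X, and each was taken as its annotated body with 20 kb on each side. The 8 windows together spanned 430.392 kb and held 1020 of the 528044 peaks in 45 lists (0.193%). Of these lists, 21 came from Ishikawa, an endometrial adenocarcinoma line, and 24 from T-47D, a breast ductal carcinoma line. Cells received 17β-estradiol (E2, 10 nM) or its vehicle DMSO. The treatment lasted 1 h where ChIP was for TAF1, JUN, LSD1, MAX, MYC, RARA and, in T-47D only, RNA polymerase II (RNAPII), and 8 h where it was for H3K4me1, H3K4me3 and H3K27me3. SIN3A was mapped in stripped and in full media in both lines, and H3K36me3 in full media in Ishikawa. Per the methods of the study, cells had been kept in hormone-depleted medium before treatment, so DMSO stands for hormone-deprived cells. The 4 input samples were not analysed here.

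AP-1 is a dimer of basic leucine zipper (bZIP) proteins. FOS family proteins bind DNA only with a partner such as a JUN family protein, whereas JUN proteins can also pair among themselves, and ATF3 is a stress-induced relative that pairs with JUN proteins. The dimers bind a short palindrome, TGANTCA, or the version with 1 more base, TGANNTCA, to which JUN with an ATF partner binds. Several of these genes are immediate early genes, and JUN is known for acting on its own promoter. In cells that carry estrogen receptors, AP-1 sites are among those to which the receptor can be tethered. The JUN lists therefore give the places where ChIP for an AP-1 protein had peaks at the genes that encode AP-1.

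In hg19 the FOS family lies at 4 places. FOS (ENSG00000170345.10_7) is on the plus strand of chromosome 14 from 75745529 to 75748933, and FOSB (ENSG00000125740.15_8) on the plus strand of chromosome 19 from 45971253 to 45978437, with ERCC1 and PPM1N starting in its window. FOSL1 (ENSG00000175592.9_9) is on the minus strand of chromosome 11 from 65659520 to 65668044, in the most crowded window, where 6 other coding genes start. FOSL2 (ENSG00000075426.12_7) is on the plus strand of chromosome 2 from 28615315 to 28640184, with no other coding gene start around it. Of the JUN family, JUN lies on chromosome 1, where no other coding gene starts in its window. JUNB (ENSG00000171223.6_6) is on the plus strand of chromosome 19 from 12902300 to 12904129, with PRDX2, RNASEH2A and THSD8 starting nearby, and JUND (ENSG00000130522.6_11) on the minus strand of chromosome 19 from 18390504 to 18392432, with IQCN. ATF3 (ENSG00000162772.18_14) is on the plus strand of chromosome 1 from 212738676 to 212794119, with GARIN4. Peaks in a window can therefore belong to a neighbour.

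Every group except T-47D RNAPII was a single library, so values of those groups are given without a test, and a difference between lists cannot be told apart from a difference between 2 libraries. Lists held from 2 to 46282 peaks, and 12 of them, none longer than 844 peaks, had no peak in any of the 8 windows. These were the Ishikawa lists of MYC (both treatments), RARA under DMSO and H3K36me3, and the T-47D lists of H3K27me3 under E2, LSD1 (both), MAX under DMSO, RARA (both) and SIN3A (both). No peak in such a list says little about occupancy. The number of sequenced reads is not in the lists, so its part in differences of peak number was not tested. A fold enrichment, the ratio of ChIP pileup to background at a summit, averages over the cells of a culture, so more occupied cells and more protein per cell cannot be told apart. In the H3K27me3 lists, 96.4% of Ishikawa E2 peaks and 85.7% of T-47D DMSO peaks overlapped an H3K4me3 peak of the same line and treatment.

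The cell line labels were checked at marker promoters. H3K4me3 peaks lay at GATA3 (fold enrichments 23.0 and 19.1 under DMSO and E2) and SPDEF (18.1 and 19.7) in T-47D, and at PAX8 (14.5 and 13.7) and EMX2 (29.3 and 32.9) in Ishikawa. PAX8, EMX2 and SOX17 had no H3K4me3 peak in T-47D. GATA3 had an Ishikawa peak only under E2, at 10.0, SOX17 had one only in Ishikawa under E2, at 6.95, and the breast marker ANKRD30A had none in any list examined. The epithelial keratin genes KRT8 and KRT18 carried H3K4me3 in both lines.

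Some of the sequences under JUN peaks are shown first, because the share of JUN summits with a motif was unequal in the lists of the 2 lines. The JUN gene (ENSG00000177606.9_9) lies on the minus strand of chromosome 1 from 59242517 to 59249720 (hg19), and the 150 bases before its start, chr1:59249721-59249870, are given on the strand of the gene. The other lines give the 100 bases centred on the strongest JUN summit of a window outside untranslated regions, read on the plus strand of hg19. Those of FOSL2, JUN and JUND, which held neither motif, are not printed. Capitals mark TGANTCA or TGANNTCA, searched on both strands, which for these palindromes is the same search.
JUN promoter, chr1:59249721-59249870: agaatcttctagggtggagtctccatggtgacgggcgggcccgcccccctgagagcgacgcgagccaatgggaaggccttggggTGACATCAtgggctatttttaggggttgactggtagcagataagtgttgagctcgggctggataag
FOSB, 12.1 kb upstream, chr19:45959120-45959219: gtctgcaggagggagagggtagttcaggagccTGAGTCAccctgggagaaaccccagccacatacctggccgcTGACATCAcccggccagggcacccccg
FOSL1, 2.98 kb upstream, chr11:65670785-65670884: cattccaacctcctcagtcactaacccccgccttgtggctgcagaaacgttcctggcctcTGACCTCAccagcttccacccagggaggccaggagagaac
FOS promoter, chr14:75745326-75745425: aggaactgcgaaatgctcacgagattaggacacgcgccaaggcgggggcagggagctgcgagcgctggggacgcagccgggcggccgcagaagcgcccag
JUNB, 4.8 kb upstream, chr19:12897449-12897548: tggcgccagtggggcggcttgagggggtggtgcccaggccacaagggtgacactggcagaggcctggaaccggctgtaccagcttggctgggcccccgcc
ATF3, 49.8 kb upstream of its canonical start, chr1:212732268-212732367: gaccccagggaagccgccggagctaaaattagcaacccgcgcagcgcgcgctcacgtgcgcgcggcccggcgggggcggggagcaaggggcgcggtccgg
The JUN promoter held 1 match, TGACATCA, from -66 to -59 bases before the start. The FOSB sequence, in an intron of ERCC1, held both motifs, and was the strongest JUN peak of the Ishikawa lists within the 8 windows. The FOSL1 sequence, between genes, held TGACCTCA and was a peak in Ishikawa only. The FOS, JUNB and ATF3 sequences, at summits that were strongest in T-47D, held neither motif, which says only that these letters are not in these 100 bases. The JUN summit that is not printed, 3.94 kb downstream of the start, was strongest in Ishikawa. A JUND summit 6.61 kb downstream held TGAGTCA and was strongest in T-47D. Of the 59 merged JUN regions described below, 9 held either motif at their strongest summit.

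Over all JUN peaks of a list, TGANTCA lay within the 100 bases around 13.7% of summits in Ishikawa under DMSO and 10.9% under E2, against 2.44% and 1.66% in T-47D. In the 8 windows it lay at 3 of 16 and 6 of 42 summits in Ishikawa, and at 3 of 59 and 4 of 49 in T-47D. TGANNTCA was found at 7.89% and 6.66% of all Ishikawa summits and at 2.78% and 1.99% of all T-47D summits. In the windows of the AP-1 genes it lay at 4 of 16 and 4 of 42 Ishikawa summits and at 3 of 59 and 2 of 49 T-47D summits. Consecutive tiles of 100 bases over the whole reference held TGANTCA in 3.1% and TGANNTCA in 5.36%, and the shares over the whole T-47D lists were below these, while the share of T-47D window summits with TGANTCA (5.08% and 8.16%) was above. These shares describe single libraries and were not tested.

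In the promoter table of RefSeq (300 bases per gene, from 250 before to 50 after the start, on GRCh38) all members except FOSL1 had an entry. Of all 35116 promoters in it, 7.71% held TGANTCA and 11.5% held TGANNTCA. Among the members, FOSL2 held 1 TGACTCA, JUN 1 TGACATCA, JUND both TGACGTCA and TGAGCTCA, and 1 of 2 ATF3 promoters TGACATCA. The promoters of FOS, FOSB and JUNB held neither motif.

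Transcription starts of all 8 genes were marked as active promoters in both lines, as the plot of promoter peaks by list shows. A promoter was taken as 250 bp on each side of any annotated transcript start, and the value of a list is the highest fold enrichment of a peak that overlaps it. H3K4me3, a mark of active promoters, was present at 8 of 8 genes in Ishikawa under DMSO and E2 (67.3% and 68.2% of all protein-coding genes) and in T-47D under DMSO (62.1%). Under E2 in T-47D it was present at 7 of 8 (59.0%), and FOSL1 was the gene without a peak. With so many genes marked, these counts lie near the background. At the 5′ end of each gene alone, the count was 7 of 8 in Ishikawa under both treatments. In T-47D it was 6 under DMSO and 3 under E2. The JUN promoter had the highest H3K4me3 value of the 8 in Ishikawa, at 42.9 under DMSO and 44.8 under E2, which were at the 99.2 and 99.1 percentiles of protein-coding genes. In T-47D the JUN promoter reached 15.5 and 9.8, and there it was not the highest of the members. JUNB, by contrast, had the lowest value of the 8 in Ishikawa under DMSO, 10.2, and the highest in T-47D under E2, 16.9.

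**Figure D1:**
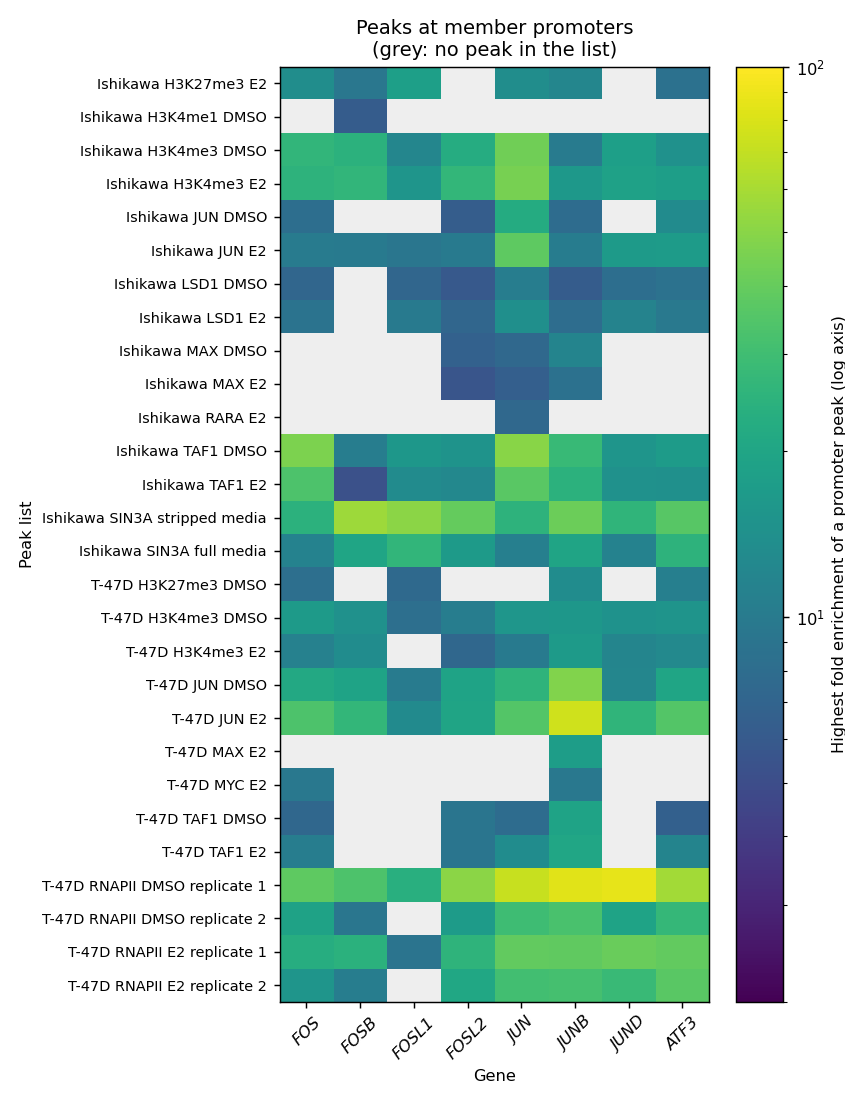
Highest fold enrichment (colour, log axis) of a peak overlapping a promoter of each AP-1 subunit gene (columns) in the 28 lists (rows) that had a peak at 1 or more of them. Grey cells have no peak in that list. H3K4me3, TAF1 and SIN3A in Ishikawa cover all 8 genes, JUN covers 5 in Ishikawa under DMSO and 8 in the other 3 JUN lists, and the brightest cells of JUN are at JUNB in T-47D.

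TAF1, the largest subunit of the general transcription factor TFIID, lay at all 8 promoters in Ishikawa under DMSO (59.9% of all genes) and E2 (55.8%). Its highest values were at JUN (49.6 and 36.8) and FOS (46.5 and 33.3), and each of the 8 genes had a lower value under E2 than under DMSO. The median over all genes with a TAF1 promoter peak was lower under E2 as well (20.15 and 15.8). These medians are over unlike sets of 12044 and 11218 genes. The share of all genes with a lower value was not counted, so this direction is not shown to be particular to the members. In T-47D TAF1 lay at FOS, FOSL2, JUN, JUNB and ATF3 under both treatments, 5 of 8, against 23.0% of all genes under DMSO and 27.9% under E2. Its T-47D value at JUN was 7.93 under DMSO and 13.4 under E2, and at JUNB 19.3 and 20.3. FOSB, FOSL1 and JUND had no TAF1 promoter peak in T-47D.

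The corepressor SIN3A lay at all 8 promoters in Ishikawa, in stripped media (59.5% of all genes) and in full media (50.5%). The median over the 8 genes was 38.0 in stripped and 18.2 in full media, beside 24.6 and 14.0 over all genes with a SIN3A promoter peak. Values were highest at FOSB (56.2) and FOSL1 (50.6) in stripped media and at FOSL1 (26.3) and ATF3 (25.2) in full media. The order differed from that of TAF1 and H3K4me3, since FOS (24.9) and JUN (25.2) were the lowest of the 8 in stripped media.

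LSD1, a histone demethylase of corepressor complexes, lay at 7 of 8 promoters in Ishikawa, under DMSO (16.7% of all genes) and under E2 (40.6%). FOSB was the gene without a peak in both. All 7 values were higher under E2, with the highest at JUN (10.5 and 14.0). The median over all genes with an LSD1 promoter peak was 8.5 under DMSO and 8.96 under E2. These medians are over unlike sets of 3347 and 8151 genes. The share of all genes with a higher value was not counted, so this direction is not shown to be particular to the members. MAX, the E-box partner of MYC, lay at FOSL2, JUN and JUNB in Ishikawa under both treatments, 3 of 8, against 10.1% of all genes under DMSO and 4.39% under E2. The MAX values were 6.77, 7.50 and 11.7 under DMSO and 5.64, 6.57 and 8.66 under E2. The retinoic acid receptor RARA had a promoter peak at JUN alone in Ishikawa under E2 (fold enrichment 7.48, 8.82% of all genes). In T-47D under E2, MAX lay at JUNB (17.6, 7.04% of all genes), and MYC at FOS (9.63) and JUNB (9.56), 2 of 8 against 7.33%. The matching DMSO lists (RARA in Ishikawa, MAX and MYC in T-47D) had no promoter peak at a member and held fewer peaks.

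H3K27me3, the mark of Polycomb-silenced genes, had no promoter peak at any of the 8 in Ishikawa under DMSO (2.5% of all genes) and peaks at 6 of 8 under E2 (25.4%), all but FOSL2 and JUND. Values ran from 8.58 at ATF3 to 18.1 at FOSL1. In T-47D under DMSO FOS, FOSL1, JUNB and ATF3 had one, 4 of 8 against 22.5%. All 30 H3K27me3 peaks in the windows in Ishikawa under E2, and 13 of 15 in T-47D under DMSO, overlapped an H3K4me3 peak of the same line and treatment, as most peaks of those lists did.

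JUN itself lay at the promoters of AP-1 genes in each of its 4 lists. Under DMSO in Ishikawa it lay at JUN, JUNB, FOS, FOSL2 and ATF3, 5 of 8 genes against 3.98% of all protein-coding genes. Under E2 in Ishikawa it lay at 8 of 8 (32.7% of all genes), the added genes being FOSB, FOSL1 and JUND. In T-47D it lay at 8 of 8 under DMSO (57.8%) and under E2 (60.5%), where most genes had such a peak. The 5 genes of the Ishikawa DMSO list had a peak in all 4 lists, which follows from the other JUN lists holding all 8 members. Of the 799 coding genes with a promoter peak in the Ishikawa DMSO list, 725 had one in all 4 lists (3.61% of all coding genes). Genes with more annotated starts have more chances of a promoter peak, from 1 start at JUNB to 8 at FOSB, and this was not adjusted for.

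At its own promoter JUN had fold enrichments of 22.3 and 37.9 in Ishikawa under DMSO and E2, and of 25.6 and 35.4 in T-47D. Both lines thus had the higher value under E2. Among promoters of all coding genes these values stood at the percentiles 99.9 and 99.8 in Ishikawa and 94.5 and 93.3 in T-47D. Genes without a peak rank lowest in these percentiles, and they were more frequent in Ishikawa, so the lines cannot be compared by them. Within the lists, 6.9% and 2.71% of Ishikawa peaks and 4.68% and 5.1% of T-47D peaks had a higher fold enrichment than the JUN promoter peak. The peak was 615 bp wide in Ishikawa under DMSO and 3686 bp wide under E2, where only 0.202% of the peaks of that list were wider. In T-47D it was 3588 and 3497 bp wide, wider than all but 0.226% and 0.358% of peaks. Its summit lay at -77 and -51 bp from the canonical start in Ishikawa, close to the TGACATCA shown above, and at -6 and -377 bp in T-47D. A wide peak can hold several summits, and the list gives the highest.

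JUNB, a JUN family member that can act as a weaker activator than JUN, had the strongest JUN promoter peak of the 8 in T-47D and not in Ishikawa. Its fold enrichment was 7.95 and 10.3 in Ishikawa under DMSO and E2, and 47.5 and 75.8 in T-47D. The T-47D peaks ranked 19 of 28703 and 6 of 24885 by fold enrichment, whereas 86.2% and 44.2% of peaks in the Ishikawa lists were higher. Among promoters of all coding genes, those without a peak included, JUNB stood at the percentiles 97.3 and 93.0 in Ishikawa. In T-47D these were 99.9 and, rounded, 100. JUND, the JUN family member that is expressed broadly without stimulation, had no JUN promoter peak in Ishikawa under DMSO, one of 17.0 under E2, and values of 12.0 and 25.9 in T-47D. The T-47D E2 value belongs to a peak with its summit 2025 bp downstream of the canonical start, past the 3′ end of this gene of 1929 bp, that came within 250 bp of a further annotated start inside the gene. At the canonical start the T-47D E2 value was 17.5.

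In the FOS family, FOS had promoter values of 8.27 and 10.2 in Ishikawa and 21.2 and 33.6 in T-47D. FOSL2 had 6.33 and 9.88 in Ishikawa and 19.4 and 19.7 in T-47D. FOSB had no peak in Ishikawa under DMSO, 10.0 under E2, and 19.4 and 26.8 in T-47D. FOSL1, which encodes FRA1, had none, then 9.23, and in T-47D 10.1 and 13.0. The T-47D values of FOSL1 were below the medians of all genes with a JUN promoter peak there (15.8 and 21.9). Their percentiles among all genes, those without a peak included, were 51.6 and 49.9. ATF3 had 13.2 and 17.2 in Ishikawa and 20.03 and 35.1 in T-47D. Each member with a JUN promoter peak under both treatments had the higher value under E2. The same direction was common in the whole lists, as given below.

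Over whole windows, promoters included, JUN peaks numbered 16 under DMSO and 42 under E2 in Ishikawa, and 59 and 49 in T-47D. In Ishikawa 7 of 8 members had more peaks under E2 (54.5% of all coding genes had), FOS having 1 in both. In T-47D 5 of 8 had fewer under E2 (27.4% of all coding genes had), and FOSB, JUN and ATF3 had equal numbers. JUNB had the most peaks in Ishikawa (5 and 14), JUND and JUNB in T-47D (13 and 9 for JUND, 12 and 11 for JUNB), while the JUN window held 1, 2, 2 and 2. The whole Ishikawa JUN list grew from 3768 to 18311 peaks and the T-47D list went from 28703 to 24885, so the windows held 0.425% and 0.229% of the Ishikawa lists and 0.206% and 0.197% of the T-47D lists.

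**Figure D2:**
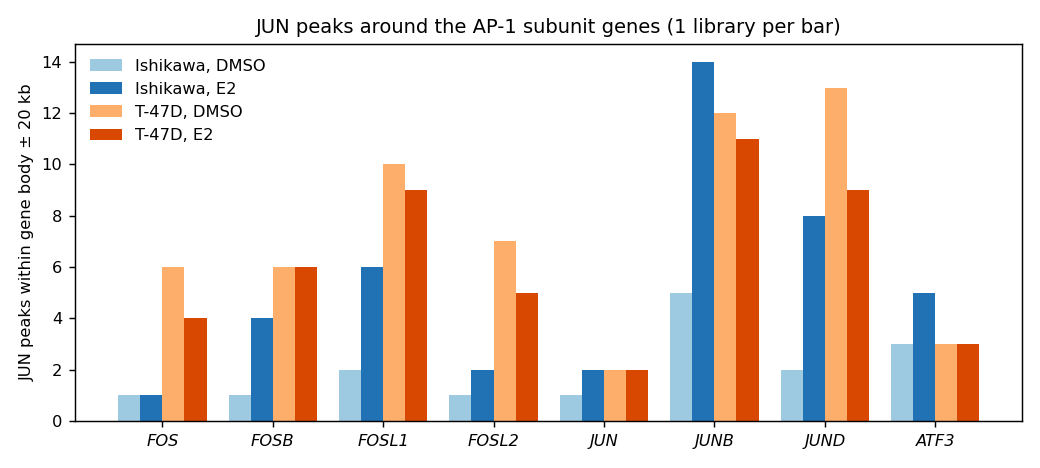
Number of JUN peaks (vertical axis) within the gene body and 20 kb on each side of each AP-1 subunit gene (horizontal axis), with 1 bar per library. In Ishikawa the E2 bar is above the DMSO bar for all genes but FOS, where both stand at 1. In T-47D no E2 bar is above its DMSO bar.

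Overlapping JUN peaks of the 4 lists were merged into 59 regions in the windows. Of these, 13 held a peak in all 4 lists, 30 in both lines, 6 in Ishikawa only and 23 in T-47D only. Of the Ishikawa regions, 15 held peaks under both treatments, 21 under E2 only and 0 under DMSO only, and 17 of the 21 were also T-47D regions. In T-47D, 41 regions were shared by the treatments, 5 had peaks under E2 only and 7 under DMSO only. Of the 59 T-47D window peaks under DMSO, 51 overlapped an E2 peak, so the lower E2 peak number is not a count of regions lost. The median peak width of the whole T-47D JUN list was 442 bp under DMSO and 567 bp under E2. The part of peak width in the peak numbers was not tested. By place, 10 regions lay at a promoter of the member itself, 17 at a promoter of another gene or noncoding RNA, and 32 away from promoters. So 17 of 59 JUN regions near AP-1 genes sat at starts of neighbours.

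Where a DMSO peak was overlapped by an E2 peak, the E2 value was higher at 15 of 16 window peaks in Ishikawa, with a median ratio of 1.73, from 0.66 to 2.32. Over the whole Ishikawa list the median ratio was 1.7 and 90.1% of overlapped peaks were higher under E2. In T-47D 49 of 51 overlapped window peaks were higher under E2, with a median ratio of 1.45, from 0.788 to 4.56, beside 1.39 and 83.3% in the whole list. The windows followed their lists in both lines, and in T-47D the windows held fewer peaks under E2 although most overlapped peaks had a higher fold enrichment. The Ishikawa peak with a lower E2 value lay in an ATF3 intron, 12.3 kb upstream of the canonical start, at 13.5 under DMSO and 8.93 under E2, and it had no T-47D counterpart.

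The strongest JUN region away from promoters was the FOSB one shown above, 12.1 kb upstream of FOSB in an ERCC1 intron. It held a peak in all 4 lists, at 36.2 and 63.6 in Ishikawa and 13.3 and 27.3 in T-47D, so it was stronger in Ishikawa. FOSB had a further upstream region, 17.0 kb away at the promoter of ERCC1, a nucleotide excision repair gene, with peaks in T-47D only, at 31.1 and 49.5. FOSL1 likewise had a region 2.98 kb upstream with peaks in Ishikawa only (16.6 and 30.2). A second FOSL1 region, 15.5 kb upstream, held TGAGTCA and peaks in all 4 lists (9.69, 17.0, 8.77 and 9.22). FOSL2 had a region 44012 bp downstream of its start, beyond its 3′ end, in T-47D only (20.4 and 24.4).

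JUNB, in a window that the annotated HOOK2 gene spans, had 12 JUN regions, of which 11 were in both lines. The strongest apart from the promoter lay 4.8 kb upstream, at 9.0 and 19.6 in Ishikawa and 28.3 and 44.1 in T-47D. The next was at the promoter of PRDX2, a peroxiredoxin gene, and THSD8, 10.3 kb downstream, absent in Ishikawa under DMSO, at 6.69 there under E2 and at 20.3 and 42.9 in T-47D. JUND had a region 6.61 kb downstream of its start, at an annotated start of IQCN, that held TGAGTCA and peaks in all 4 lists (10.7, 22.6, 9.0 and 24.8). ATF3, whose body spans 55444 bp with several starts, had its upstream region 49.8 kb before the canonical start, at the start of a noncoding RNA, in all 4 lists (7.96, 18.5, 21.8 and 31.2). FOS had JUN peaks beyond its promoter in T-47D alone, such as one 1.53 kb upstream at 11.5 and 17.6.

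**Figure D3:**
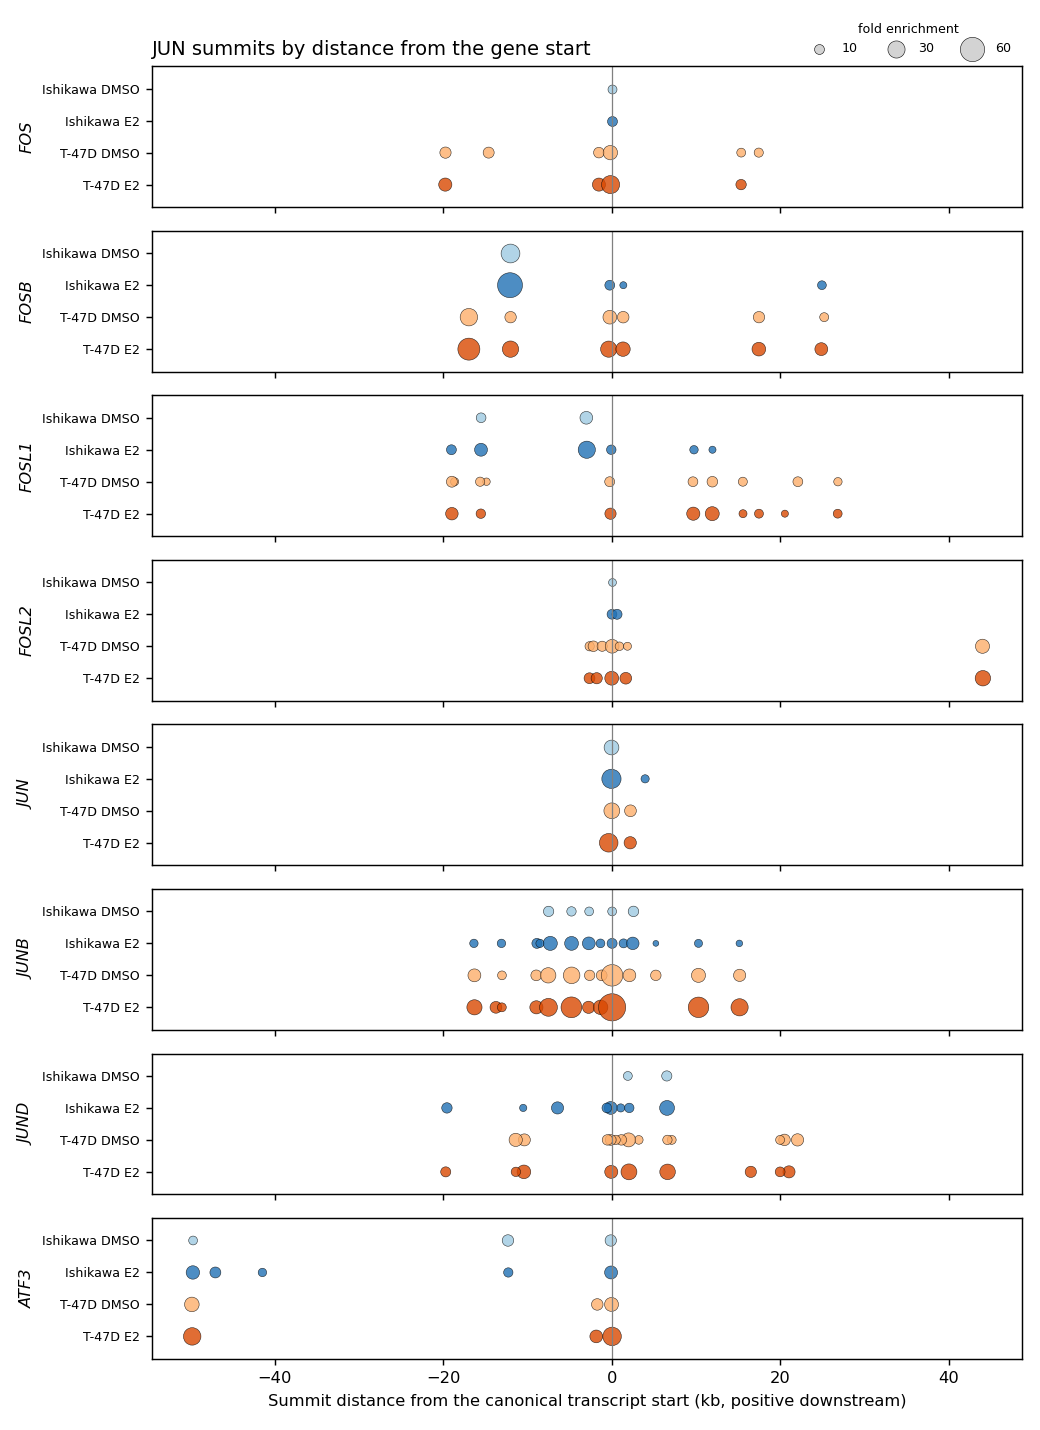
Position of each JUN summit relative to the canonical start of the AP-1 subunit gene (horizontal axis, kb, positive downstream), with 1 row per library and circles whose area is proportional to fold enrichment. All 8 genes have a summit near 0 in T-47D. FOSB has its largest Ishikawa circle 12.1 kb upstream, and the FOSL1 region 2.98 kb upstream is seen in the Ishikawa rows only.

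JUN peaks of the windows were set beside other proteins. In Ishikawa 13 of 16 JUN peaks under DMSO (81.2%) and 33 of 42 under E2 (78.6%) overlapped an LSD1 peak of the same treatment, against 73.6% and 56.1% of the whole JUN lists. TAF1 overlapped 93.8% and 83.3% of the window peaks, against 61.8% and 51.9%. H3K4me1, a mark of enhancers, overlapped 31.2% and 23.8%, against 45.3% and 31.5%. In T-47D H3K4me3 overlapped 67.8% and 67.3% of the window peaks, against 56.0% and 56.2% of the lists, and TAF1 overlapped 7 of 59 (11.9%) and 9 of 49 (18.4%), lower shares than the 4313 of 28702 and 5179 of 24883 JUN peaks of the lists. RNAPII replicate 1 of the same treatment overlapped 56 of 59 and 45 of 49 T-47D window peaks. In the whole T-47D JUN lists it overlapped 25030 of 28702 and 19554 of 24883 peaks. RNAPII replicate 2 overlapped 24 of 59 and 32 of 49 window peaks. Its whole-list numbers were 12634 of 28702 and 13283 of 24883. Whether this overlap bears on the low motif shares of the T-47D JUN lists was not tested. The windows are gene-dense, which was not matched in these whole-list shares, and none of the differences was tested.

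Adding the 9 targets that were mapped under both treatments in both lines, and so without RNAPII, the windows held 172 peaks under DMSO and 250 under E2 in Ishikawa, and 147 and 130 in T-47D. JUNB contributed most (55 and 73 in Ishikawa, 33 and 26 in T-47D), and its window held 24.4% of all member peaks. In Ishikawa the E2 total was higher at each of the 8 genes, from 15 and 16 at ATF3 to 23 and 44 at JUND. The share of all coding genes with a higher E2 total was not counted in either line, so no direction is shown to be particular to the members. The whole Ishikawa lists of H3K27me3, H3K4me3, JUN, LSD1 and RARA were longer under E2, and those of H3K4me1, MAX, MYC and TAF1 shorter. In T-47D those of H3K27me3, H3K4me1, H3K4me3, JUN and RARA were shorter under E2, and those of LSD1, MAX, MYC and TAF1 longer. Without RNAPII, JUN was the gene with a higher E2 total in T-47D (6 and 10), and its window held 2 H3K4me3 peaks under DMSO and 7 under E2. The H3K4me3 value at the JUN promoter was lower under E2 there (15.55 and 9.80), so more peaks did not go with a higher enrichment. With the RNAPII lists added, a count chosen after seeing the data, the T-47D total was 235 under DMSO and 291 under E2. Then 5 of 8 genes had the higher E2 total, among them FOSL2 (21 and 53) and ATF3 (16 and 31), and no share of all coding genes was counted. RNAPII E2 replicate 1 alone held 112 window peaks, with 35 at FOSL2 and 14 at ATF3. E2 replicate 2 held 49, with 5 at each of these genes, and the DMSO libraries held 57 and 31. JUNB had a promoter peak in 26 of 45 lists, JUN in 24, FOS in 23, FOSL2 and ATF3 in 22, FOSB and JUND in 17, and FOSL1 in 16.

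RNAPII occupancy was measured in T-47D with 2 libraries per treatment, and the highest fold enrichment of a peak over each gene body with 250 bp on each side was compared. The DMSO libraries lay on both sides of the E2 libraries, since the median over the 10174 coding genes with a peak in all 4 was 60.3 and 13.8 under DMSO and 29.2 and 17.2 under E2. DMSO replicate 1 thus stood apart.

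At JUN the values were 72.5 and 29.5 under DMSO and 38.9 and 30.8 under E2. At JUNB they were 84.1 and 32.3 against 38.4 and 31.6, and at JUND 87.1 and 19.4 against 40.9 and 28.2. The treatments overlapped at all 3 genes.

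At FOS they were 37.8 and 19.0 against 22.7 and 15.4, at FOSB 33.3 and 9.33 against 24.5 and 10.4, and at FOSL2 50.8 and 17.2 against 25.6 and 20.5. At ATF3 they were 58.2 and 26.9 against 39.04 and 36.97. FOSL1 had peaks in replicate 1 of each treatment only (23.5 and 10.7). No member had E2 libraries all above or all below the DMSO libraries, as 0.592% and 1.34% of the 14181 coding genes with a peak had.

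Mean log2 differences, E2 minus DMSO, ran from -0.58 at JUNB to -0.06 at ATF3, with a median of -0.39, beside -0.35 over all genes tested. The exact two-sided permutation test gave p of 0.667 at FOS and JUNB and 1 at the other 6, and an adjusted p of 1 at all 8 (Benjamini-Hochberg over the 14181 genes). With 2 against 2 libraries p cannot be below 0.333, so the test cannot pass a threshold of 0.05. The labels do not say whether replicates were separate cultures, so p measures only the spread between these libraries. Without DMSO replicate 1 the median difference was 0.46 in place of -0.39, and without DMSO replicate 2 it was -1.11. Each setting leaves a single DMSO library. The all-gene median of DMSO replicate 1 (60.3) lay above those of both E2 libraries (29.2 and 17.2). That of DMSO replicate 2 (13.8) lay below both. By base pairs covered with peaks the median difference of the members was 0.41, and relative to the library median it was -0.026.

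The covered share of the gene body showed where the direction turned. At FOSL2 peaks covered 6.67% and 2.52% of the body under DMSO and 31.0% and 5.72% under E2, in 1 and 1 against 23 and 3 peaks. At FOS they covered 17.1% and 12.8% against 52.9% and 12.8%, and at JUN 45.4% and 47.9% against 45.5% and 61.5%. At ATF3 they covered 5.56% and 1.14% against 8.24% and 2.48%. The groups overlapped at all 8 genes, at FOSL1 only because replicate 2 of each treatment had no peak and counts as 0. Of the 4 lists, E2 replicate 1 was the longest, with 46282 peaks, and the part of list length in these shares was not tested.

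**Figure D4:**
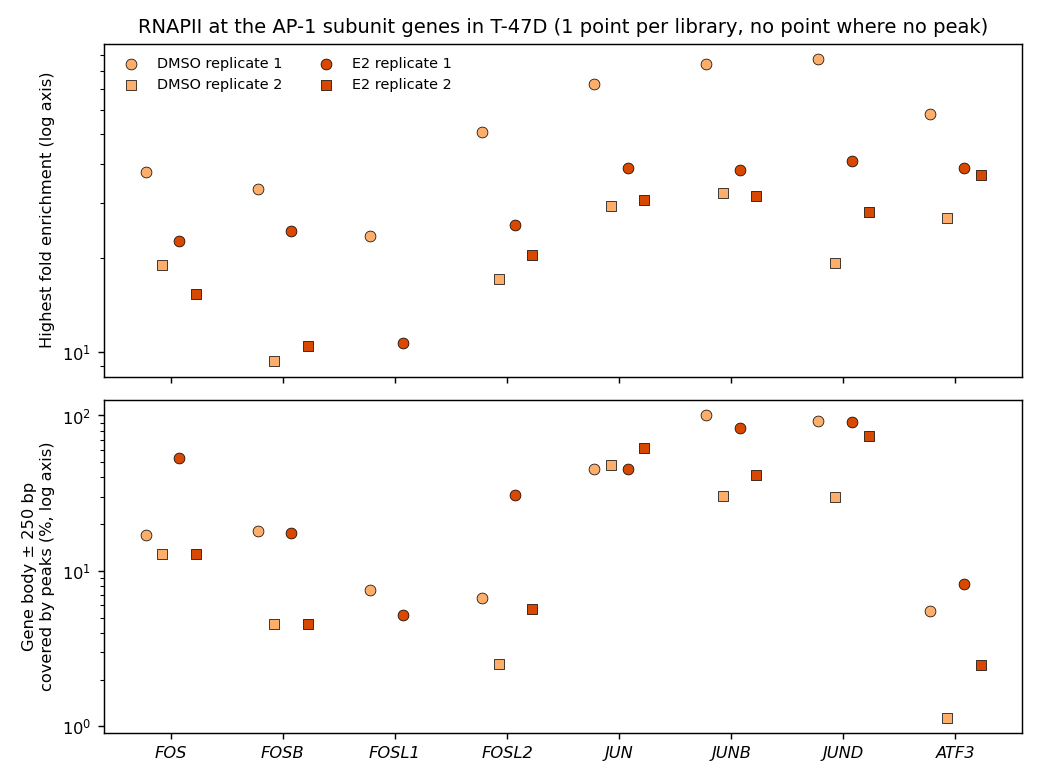
RNAPII in T-47D at each AP-1 subunit gene (horizontal axis), as the highest fold enrichment (upper panel, log axis) and as the share of the gene body with 250 bp on each side covered by peaks (lower panel, percent, log axis). Each point is 1 library (circles replicate 1, squares replicate 2), with no point where a library had no peak. DMSO replicate 1 has the highest fold enrichment at all 8 genes, and the DMSO and E2 points overlap in both panels at every gene but FOSL1, where only replicate 1 of each treatment has a point and DMSO is the higher.

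Other genes of the pathway were read at their promoters in the JUN lists. Of 19 bZIP partner genes, 6 had a JUN promoter peak in Ishikawa under DMSO, 11 under E2, and 16 in T-47D under both treatments, beside 3.98%, 32.7%, 57.8% and 60.5% of all coding genes. The strongest among those with a peak in all 4 lists were ATF4, the main effector of the integrated stress response (10.4, 15.3, 28.0 and 49.7), MAFK, a small MAF protein (20.5, 41.9, 18.5 and 20.2), ATF5 (7.33, 8.47, 21.6 and 34.8) and DDIT3, which encodes CHOP (10.7, 13.2, 17.6 and 29.0). MAFK was the one of these 4 with its highest value in Ishikawa. The immune bZIP genes BATF, BATF2 and BATF3 had no JUN promoter peak.

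Of 10 kinase and ternary complex factor genes upstream of FOS and JUN, 0 had a JUN promoter peak in Ishikawa under DMSO, 3 under E2 and 10 in T-47D under both treatments. Of all coding genes 3.98%, 32.7%, 57.8% and 60.5% had one, and the 3 of 10 under E2 in Ishikawa lie near that background. The 3 were MAP2K7, which activates JNK (4.93 in Ishikawa, 29.1 and 35.7 in T-47D), ELK4 (7.54, 19.3 and 26.3) and SRF (7.41, 9.73 and 10.3). Of 14 other immediate early genes, 4 had one in Ishikawa under DMSO, 10 under E2, and 11 and 13 in T-47D, beside the same shares of all coding genes as for the bZIP genes. DUSP1, a MAP kinase phosphatase (7.57, 12.1, 28.5 and 40.0), CCN1, a matricellular protein gene (32.7, 38.3, 20.7 and 25.7), and NR4A1, an orphan nuclear receptor gene (7.73, 11.1, 17.7 and 27.4), had peaks in all 4 lists. IER5 lacked one in Ishikawa under DMSO (7.23, 27.2 and 34.3 in the others). CCN1, like the FOSB upstream region, had its higher values in Ishikawa.

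The pattern most like that of the JUN promoter over the 45 lists was searched among all coding genes by the correlation of log2 promoter values, which describes lists that share cell line, antibody and length. The 3 most similar genes were ENSG00000285733, WDR27 and C6orf120, which share 1 promoter on chromosome 6 and have r = 0.969 each. Among the members FOSL2 was most like JUN (r = 0.932), then ATF3 (0.895), FOS (0.877), JUNB (0.847), JUND (0.837), FOSB (0.765) and FOSL1 (0.698).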

How the data were processed

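Peaks of 45 ChIP-seq libraries were used as deposited. Per the labels, alignment to hg19 was made by the authors with Bowtie 1.1.2, and peaks were called per library with MACS2 2.1.0.20140616. For each peak the authors deposited a fold enrichment (a ratio), a −log10 p-value (at least 10.0), a −log10 q-value and a score. The fold enrichment was the measure here, and the −log10 q-value a filter in alternatives. The lists give no read depth.

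Groups came from the sample labels, and RNAPII alone had replicates. Genes came from GENCODE release 44 on GRCh37, whose chromosome names matched the lists. No peak on chromosomes 1 to 22 and X passed a chromosome end. An overlap of 1 bp sufficed, and coordinates are 1-based. For RNAPII, log2 values were put through a two-sided exact permutation test over 6 assignments (fold enrichment of 1 where a gene had no peak), adjusted by Benjamini-Hochberg. Other groups had no test. Python 3.11.15, pandas 2.3.3, scipy 1.17.1 and pysam 0.24.0 were used, and scripts were tested on simulated data.

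The members, gene lists and rules were chosen with earlier results of these data known. The genes named are the 8 members, up to 4 per related list (JUN promoter peak in the most JUN lists, then the highest fold enrichment), the 3 genes most like JUN, and genes whose start lay under a described peak. A gene that this rule names is not reported here. The BATF genes were named after their values were seen. Alternatives were wider promoters, the 5′ gene end, summits, other flanks, a −log10 q-value of at least 20, covered length, median scaling, replicates left out and a replicate block.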

Additional observations from a re-analysis of the deposited data

Results flagged for a closer look

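Peak numbers in the 8 windows changed in opposite directions with E2 in the 2 lines for 3 targets. Each number is from a single library, and the difference between lines was not tested. JUN went from 16 to 42 peaks in Ishikawa and from 59 to 49 in T-47D, a difference between the changes of 36 peaks. H3K27me3 went from 6 to 30 and from 15 to 0, a difference of 39, and the T-47D E2 list held 107 peaks in all. H3K4me3 went from 49 to 54 and from 64 to 60, a difference of 9. The whole lists of these targets changed in the same directions. JUN went from 3768 to 18311 peaks in Ishikawa and from 28703 to 24885 in T-47D. H3K27me3 went from 2199 to 6992 and from 6305 to 107, and H3K4me3 from 29597 to 31901 and from 30774 to 29081.

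For JUN, 4 members showed the opposite directions on their own, and the share of all coding genes that did so was not counted. The differences between the changes were 10 peaks at JUNB (5 to 14 and 12 to 11), 10 at JUND (2 to 8 and 13 to 9), 5 at FOSL1 (2 to 6 and 10 to 9) and 3 at FOSL2 (1 to 2 and 7 to 5). These were not tested either. Several peaks of 1 list can lie in 1 merged region, so fewer peaks need not mean fewer regions. In T-47D, JUND had 6 merged regions shared by the treatments, 2 with peaks under E2 only and 1 under DMSO only. The same numbers were 10, 1 and 1 at JUNB, 7, 2 and 2 at FOSL1, and 5, 0 and 1 at FOSL2.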

How the results depend on the processing

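With peaks of a −log10 q-value of at least 20, JUN lay at 3 rather than 5 member promoters in Ishikawa under DMSO, LSD1 there at 2, MAX under E2 at 1, RARA under E2 at 0 and T-47D MYC at 0, and the Ishikawa E2 over DMSO ratio of JUN window peaks was 4.29 (7 and 30 peaks) rather than 2.62. With promoters of 1000 bp on each side, H3K27me3 in Ishikawa under DMSO lay at 1 member and RARA under E2 at 2. With the 5′ end of the gene alone, H3K4me3 in T-47D under E2 lay at 3. The other promoter counts, the T-47D JUN ratio (0.831) and the ratios over the 9 targets other than RNAPII (1.45 and 0.884) stayed within 1.5 times and on the same side of 1 under the other settings run without RNAPII, windows of 5 and 50 kb included. With the RNAPII lists added, chosen after seeing the data, the T-47D ratio was 1.24.

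The median RNAPII difference of the members (-0.39 on the log2 scale) was 0.41 by covered base pairs, where FOS (0.81), FOSL2 (1.70), JUN (0.18), JUNB (0.10), JUND (0.64) and ATF3 (0.85) turned positive. Relative to the library median it was -0.026, and FOSB (0.23), JUND (0.091) and ATF3 (0.31) turned positive. With each library left out in turn the median ran from -1.11 to 0.46, and it was positive only without DMSO replicate 1. The ranges were -1.06 to 0.78 for FOSB, -2.85 to 1.71 for FOSL1, -1.15 to 0.41 for FOSL2, -1.06 to 0.23 for JUN, -1.27 to 0.11 for JUNB, -1.36 to 0.81 for JUND and -0.61 to 0.50 for ATF3. The cause was not tested.

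The replicate numbers of the RNAPII libraries are shared by both treatments, but nothing says that they pair the libraries. Differences of replicate 1 and 2 correlated between treatments at r = 0.287 over 10174 genes. Paired by number, 2 members (FOS and JUNB) were lower under E2 in both pairs, and the share of all coding genes that were was not counted. With the replicate block the median difference was -0.39 as before, and the smallest p that 2 pairs allow is 0.5. No adjusted p passed without the block, and no p was computed with it.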
